A study of Mus musculus with 3 samples.

Results

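The genes described here mark the progenitor and immature stages of olfactory sensory neurons. They are Neurog1, Neurod1, Lhx2, Ebf1, Emx2, Gap43, Gng8, Dcx and Stmn2, and they were chosen by symbol, with every named probe of each. All 9 had a probe on the array, among 17349 genes with a named probe, and together they had 13 of its 35226 probes. Of the 9 genes 5 were detected on all 3 arrays (Lhx2, Ebf1, Gap43, Gng8 and Stmn2) and 4 on none (Neurog1, Neurod1, Emx2 and Dcx). The study measured total RNA of sinonasal mucosa, which lines nose and sinuses, from C57BL/6 mice aged 6 to 8 weeks. The groups were ECRS_KO, CC10-knockout mice with eosinophilic chronic rhinosinusitis of the allergic kind, ECRS_WT, wild-type mice with the same disease, and Control_WT, wild-type mice without it. CC10 is the club cell secretory protein encoded by Scgb1a1. Each group was 1 pool of equal RNA amounts from 5 mice, hybridised to 1 Illumina bead array, so that no value below has a replicate error and no test between groups was possible.

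Olfactory sensory neurons are replaced throughout life from basal cells of the olfactory epithelium. Globose basal cells that enter the neuronal lineage express proneural factors such as Neurog1 and then Neurod1. Their daughters become immature neurons, which extend an axon to the olfactory bulb and carry growth cone and cytoskeletal proteins such as Gap43, Stmn2 and Dcx, and mature neurons replace these with the odour transduction machinery. Lhx2, Ebf1 and Emx2 are transcription factors used in the lineage and known for roles in odorant receptor expression, and Gng8 is a G protein gamma subunit of immature olfactory and of vomeronasal neurons.

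Pools are named by their labels, because the targeted gene did not bear out the labels. Scgb1a1 had a signal of 597 in the pool labelled ECRS_KO and 493 in the pool labelled ECRS_WT, against 3.32, not detected, in the pool labelled Control_WT. The place of its only named probe relative to the deletion is not known here, so it checks no knockout label. The pools labelled wild type also differed from each other, with Scgb1a1 at least 14.3-fold higher in ECRS_WT than in Control_WT. The cause of that difference was not tested. Every direction below therefore rests on the labels alone. The arrays differed in brightness, with mean signals of 465, 373 and 295 in the pools labelled ECRS_KO, ECRS_WT and Control_WT, and 12508, 11992 and 11428 probes detected at a p-value under 0.01. The part of this brightness in the differences below was not tested. Levels are given as the deposited signal and as normalized intensity on the log2 scale, after background correction and quantile normalization. Olfactory tissue was present in each pool. Omp, the olfactory marker protein of mature neurons, had signals of 15646, 12381 and 10088 in the pools labelled ECRS_KO, ECRS_WT and Control_WT. In a pooled tissue, fewer cells of a type and less RNA per cell cannot be told apart.

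In the pool labelled ECRS_KO, 4 of the 5 detected genes were at least 2-fold higher than in the pool labelled ECRS_WT. These were Gap43, Stmn2, Lhx2 and Ebf1, and Gng8 was 1.54-fold higher. All 5 were lower in the pool labelled ECRS_WT than in the pool labelled Control_WT, with Gng8 the one that reached 2-fold and Ebf1 so near 0 that its sign changed under 2 of 9 alternative settings. Among all genes measured, meaning detected on either array, 4.72% were at least 2-fold higher in the first comparison and 1.40% at least 2-fold lower in the second. The plot of probe levels shows every probe of the 9 genes.

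**Figure D1:**
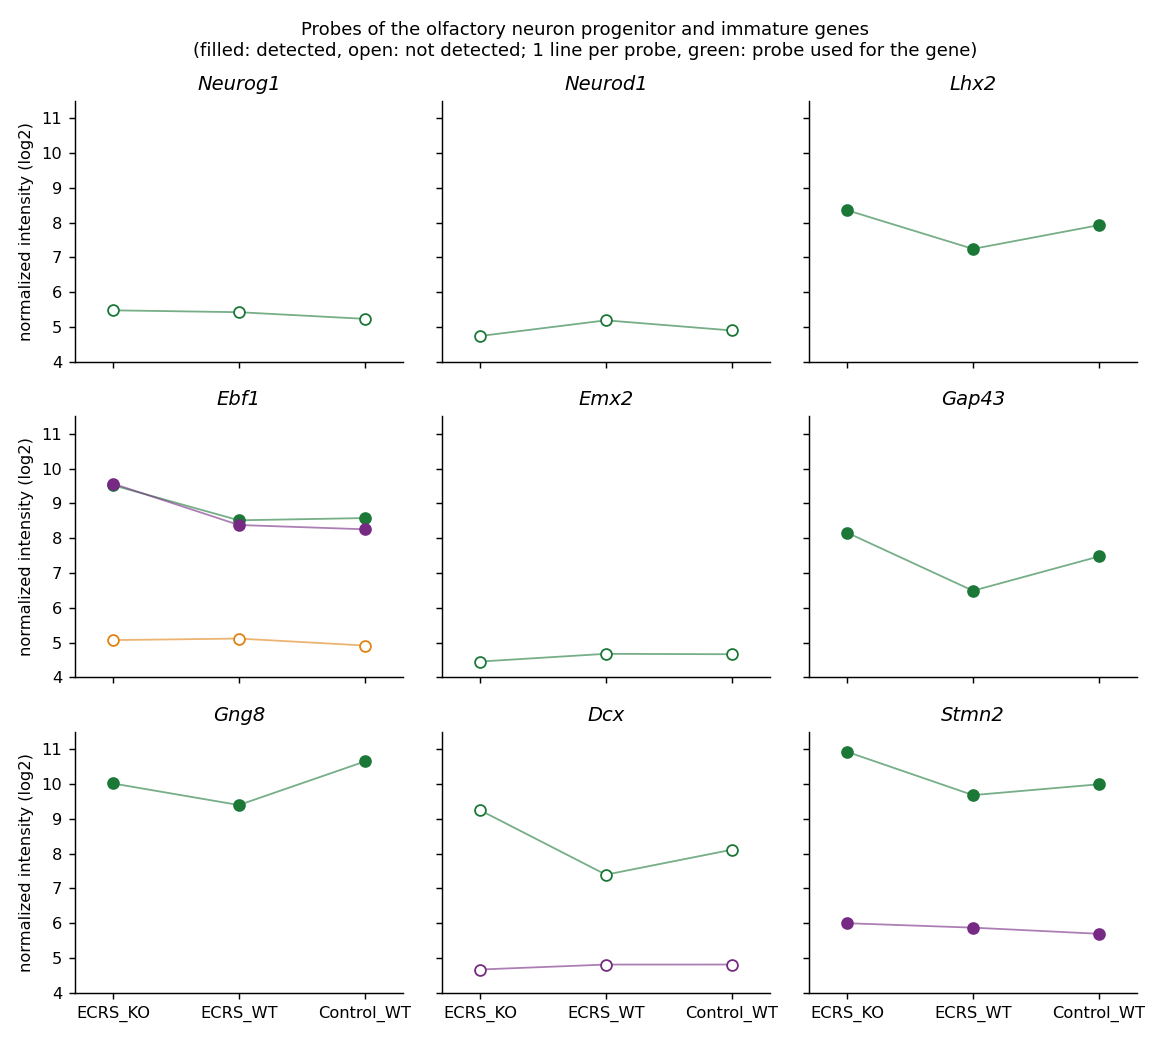
Normalized intensity (log2, vertical axis) of each probe in the pools labelled ECRS_KO, ECRS_WT and Control_WT (horizontal axis), with 1 panel per gene, filled points where the probe was detected and open points where it was not. Lhx2, Gap43, Gng8 and the brighter Stmn2 probe are lowest in the pool labelled ECRS_WT, and Neurog1, Neurod1, Emx2 and Dcx have open points only.

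Among the transcription factors, Lhx2, a LIM homeodomain protein, had a signal of 424 in the pool labelled ECRS_KO, 130 in the pool labelled ECRS_WT and 143 in the pool labelled Control_WT. Its normalized levels were 8.36, 7.25 and 7.93 on the log2 scale. The pool labelled ECRS_KO was highest and the pool labelled ECRS_WT lowest. Lhx2 was 2.16-fold higher in the pool labelled ECRS_KO than in the pool labelled ECRS_WT, a log2 difference of 1.11 that was the 360th highest of 8919 genes measured. It was 1.60-fold lower in the pool labelled ECRS_WT than in the pool labelled Control_WT.

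Ebf1, an early B cell factor also known as Olf-1, had a signal of 955 in the pool labelled ECRS_KO, against 340 in the pool labelled ECRS_WT and 239 in the pool labelled Control_WT. Its normalized levels were 9.52, 8.51 and 8.58 on the log2 scale. The pool labelled ECRS_KO stood above both others, which differed 1.05-fold. Ebf1 was 2.01-fold higher in the pool labelled ECRS_KO than in the pool labelled ECRS_WT, just over the threshold, with a log2 difference of 1.01. Another detected probe of Ebf1 gave signals of 987, 311 and 186 in the pools labelled ECRS_KO, ECRS_WT and Control_WT, and a log2 difference of 1.19 between the first of these arrays and the second. The remaining probe of Ebf1, at signals of 17.0, 13.3 and 3.14, was not detected on any array.

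The stretches before the annotated starts of Lhx2 and Ebf1, each with 2 starts, are shown because these are the members with an entry in the promoter table that were at least 2-fold higher for ECRS_KO against ECRS_WT. That of Gng8 is shown because it was at least 2-fold lower for ECRS_WT against Control_WT, and that of Neurog1 because it held a searched motif. The sequences are from RefSeq (GRCm38.p6) and run 5′ to 3′ along the gene over the 250 bases before the start. Capitals mark the homeodomain core TAATTA. In order, they lie at chr2:38339031-38339280 (plus strand) and chr2:38351058-38351307 (plus) for Lhx2, at chr11:44617850-44618099 (plus) and chr11:44619978-44620227 (plus) for Ebf1, at chr7:16891536-16891785 (plus) for Gng8 and at chr13:56252181-56252430 (minus) for Neurog1.
Lhx2, upstream start: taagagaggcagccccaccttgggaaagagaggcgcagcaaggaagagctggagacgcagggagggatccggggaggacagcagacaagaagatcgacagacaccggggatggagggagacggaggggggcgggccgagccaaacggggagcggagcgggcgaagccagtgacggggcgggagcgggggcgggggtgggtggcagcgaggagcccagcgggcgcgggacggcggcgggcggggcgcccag
Lhx2, downstream start: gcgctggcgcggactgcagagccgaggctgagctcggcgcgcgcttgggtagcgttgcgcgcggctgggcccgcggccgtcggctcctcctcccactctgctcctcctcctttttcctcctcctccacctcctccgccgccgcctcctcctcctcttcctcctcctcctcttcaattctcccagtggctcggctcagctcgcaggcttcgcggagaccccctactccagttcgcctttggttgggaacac
Ebf1, upstream start: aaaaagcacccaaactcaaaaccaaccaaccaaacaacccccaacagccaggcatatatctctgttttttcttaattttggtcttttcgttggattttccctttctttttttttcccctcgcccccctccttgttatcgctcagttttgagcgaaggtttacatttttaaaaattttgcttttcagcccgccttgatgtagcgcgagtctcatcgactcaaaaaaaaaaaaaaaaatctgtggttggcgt
Ebf1, downstream start: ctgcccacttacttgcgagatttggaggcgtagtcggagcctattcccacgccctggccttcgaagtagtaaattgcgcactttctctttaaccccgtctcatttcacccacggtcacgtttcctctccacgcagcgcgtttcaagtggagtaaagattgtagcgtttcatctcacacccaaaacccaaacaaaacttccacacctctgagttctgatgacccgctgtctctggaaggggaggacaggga
Gng8: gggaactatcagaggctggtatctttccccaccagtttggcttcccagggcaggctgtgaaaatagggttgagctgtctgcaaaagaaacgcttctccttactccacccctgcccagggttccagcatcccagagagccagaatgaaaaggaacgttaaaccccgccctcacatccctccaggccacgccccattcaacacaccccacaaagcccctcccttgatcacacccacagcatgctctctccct
Neurog1: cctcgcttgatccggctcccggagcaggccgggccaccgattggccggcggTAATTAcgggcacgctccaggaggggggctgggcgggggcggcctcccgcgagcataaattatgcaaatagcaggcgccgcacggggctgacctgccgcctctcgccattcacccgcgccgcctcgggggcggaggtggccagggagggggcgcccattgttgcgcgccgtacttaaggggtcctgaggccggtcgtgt

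These windows differed in base composition, with 72.8% and 68.4% G or C before the 2 starts of Lhx2, 52.0% before the downstream and less before the upstream start of Ebf1, 56.0% before Gng8 and 71.2% before Neurog1. The median over all promoters was 52.4%. Of the 9 genes 7 had an entry, with 10 windows in all, and each was searched on both strands for 4 motifs, of which no 2 overlapped in these windows. TAATTA, the core bound by many homeodomain proteins, was in 3 of the 10 windows, against 4.84% of 32851 windows of all genes. The 3 were that of Neurog1 and the 2 overlapping windows of Dcx, which hold the same site, so it was counted in each. The E-boxes CAGCTG and CAGATG and the EBF palindrome (TCCC and GGGA with 2 bases between) were in none of the 10, against 13.0%, 14.4% and 0.779% of all windows.

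The proneural factors and Emx2 gave no level to compare. Neurog1, the basic helix-loop-helix factor that commits progenitors to the neuronal fate, had signals of 36.2, 24.1 and 10.1 in the pools labelled ECRS_KO, ECRS_WT and Control_WT. Its detection p-values there were 0.0150, 0.0389 and 0.110, so that it came near the threshold of 0.01 in the pool labelled ECRS_KO. Neurod1, the factor that follows it in the lineage, had signals of -2.51, 16.2 and 2.86 on the same arrays, in that order. Emx2, an empty spiracles homeodomain factor, had -25.8, -4.49 and -4.43, at the level of background. Both were not detected at this sensitivity, which does not show that they are absent.

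Of the growth and cytoskeletal genes, Gap43, a membrane protein of growing axons, had a signal of 366 in the pool labelled ECRS_KO, 69.3 in the pool labelled ECRS_WT and 96.0 in the pool labelled Control_WT. Its normalized levels were 8.16, 6.49 and 7.47 on the log2 scale. The pool labelled ECRS_WT was again the lowest. Gap43 was 3.18-fold higher in the pool labelled ECRS_KO than in the pool labelled ECRS_WT. This was the largest of these differences among the 5 detected genes and the 113th highest of 8919 genes. It was 1.98-fold lower in the pool labelled ECRS_WT than in the pool labelled Control_WT, just short of the threshold. The size of that difference depended on the processing, as given below.

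Stmn2, the stathmin-like microtubule regulator SCG10, had a signal of 2507 in the pool labelled ECRS_KO, against 779 in the pool labelled ECRS_WT and 712 in the pool labelled Control_WT. Its normalized levels were 10.93, 9.68 and 9.99 on the log2 scale. The pool labelled ECRS_KO stood above both others. Stmn2 was 2.37-fold higher in the pool labelled ECRS_KO than in the pool labelled ECRS_WT and 1.24-fold lower in the pool labelled ECRS_WT than in the pool labelled Control_WT. The other probe of Stmn2 was dim, with signals of 65.7, 39.5 and 20.3 in the pools labelled ECRS_KO, ECRS_WT and Control_WT. It did not follow the brighter one, with a fold of 1.09 between the first of these arrays and the second.

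Dcx, the microtubule-binding protein doublecortin of migrating and immature neurons, was not counted as detected, although one of its probes was not dim. That probe of Dcx gave signals of 794 in the pool labelled ECRS_KO, 146 in the pool labelled ECRS_WT and 167 in the pool labelled Control_WT, at detection p-values of 0.206, 0.500 and 0.492. No fold is drawn from it. The other Dcx probe stayed between -7.62 and 2.06 on the 3 arrays.

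Gng8 had signals of 1335 in the pool labelled ECRS_KO, 641 in the pool labelled ECRS_WT and 1166 in the pool labelled Control_WT. Its normalized levels were 10.02, 9.40 and 10.65 on the log2 scale. It was the one detected gene of the 9 that was highest in the pool labelled Control_WT. Gng8 was 1.54-fold higher in the pool labelled ECRS_KO than in the pool labelled ECRS_WT and 2.38-fold lower in the pool labelled ECRS_WT than in the pool labelled Control_WT. It was also 1.55-fold lower in the pool labelled ECRS_KO than in the pool labelled Control_WT. Its difference between ECRS_WT and Control_WT was the 8723rd highest of 8766 genes.

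**Figure D2:**
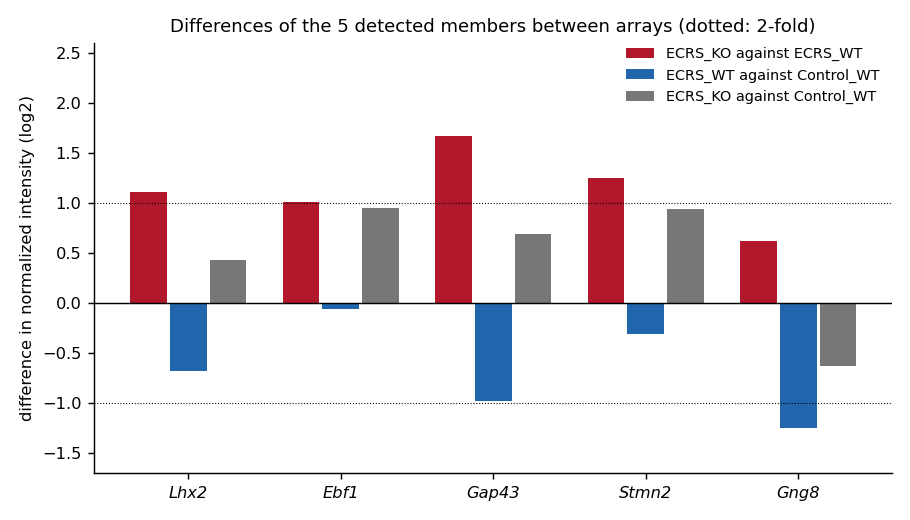
Difference in normalized intensity (log2, vertical axis) of the 5 detected genes in the 3 comparisons, with dotted lines at 2-fold. Gap43 has the largest bar, 1.67, for ECRS_KO against ECRS_WT, and Gng8 the lowest, -1.25, for ECRS_WT against Control_WT.

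The comparison of ECRS_KO with ECRS_WT sets diseased mucosa labelled as CC10 knockout against diseased mucosa labelled as wild type, although the Scgb1a1 probe was not lower in signal in the first. The 5 detected genes differed by 0.62 to 1.67 on the log2 scale, with a median of 1.11, against a median of -0.04 over all 8919 genes measured. Over 491 genes with several probes, the log2 differences of probes of 1 gene had a pooled SD of 0.29, a spread between probes and not between mice. All 5 differences, as read from the brightest probes, exceeded it, while that of the dim Stmn2 probe, 0.13, did not. The size of these differences depended on the background correction. When limma inferred the background itself, Lhx2 and Gap43 differed by 0.30 and 0.32 and Ebf1 by 0.75, all under 2-fold, and Stmn2 by 1.66. Under that inference 1.61% of genes were at least 2-fold higher. Lhx2 and Ebf1 also lay under 2-fold with an offset of 50 (0.96 and 0.95) and in the values normalized by the authors (0.88 and 0.91). Ebf1 and Stmn2 did so as the mean of all their probes, at 0.72 and 0.69.

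**Figure D3:**
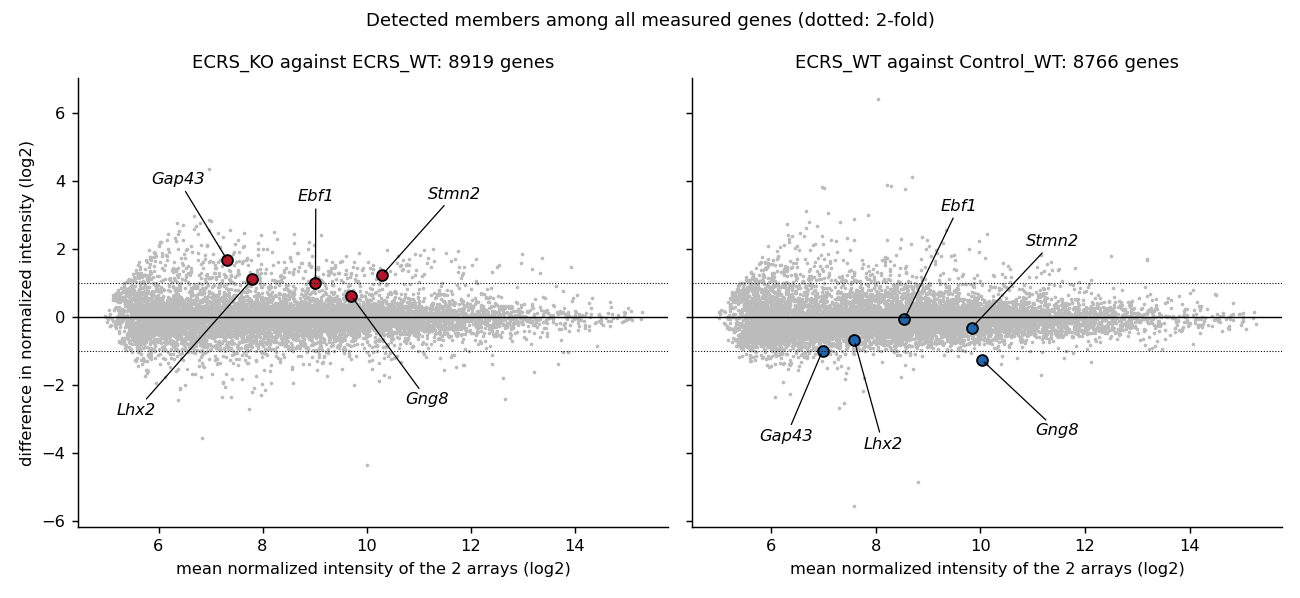
Difference (log2, vertical axis) against mean normalized intensity (log2, horizontal axis) of every gene measured, grey, with the 5 detected members marked, for ECRS_KO against ECRS_WT (8919 genes) and ECRS_WT against Control_WT (8766 genes). The 5 members lie above 0 in the first panel and below 0 in the second, Ebf1 there at -0.06 with a sign that changed under 2 settings.

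The comparison of ECRS_WT with Control_WT asks how the disease bears on wild-type mucosa. The 5 differences lay between -1.25 and -0.06 on the log2 scale with a median of -0.68, against -0.09 over all 8766 genes measured. The pooled SD between probes of a gene was 0.50 over 370 genes, so that the values of Ebf1 and Stmn2, -0.06 and -0.31, were within it. Ebf1 changed sign under median scaling, at 0.18, and with the mean of its probes, at 0.09. The other detected probes of Ebf1 and Stmn2 were higher in the pool labelled ECRS_WT than in the pool labelled Control_WT, by 0.12 and 0.18. Gng8 was at least 2-fold lower under all 9 alternative settings, including the inference by limma, which put 0.468% of genes there. Over the settings, Lhx2 ranged between -0.68 and -0.15 and Gap43 between -0.98 and -0.14. Both kept their sign, but their size depended on the processing. Both comparisons use the pool labelled ECRS_WT, so a low value on it enters each with opposite sign.

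The pools labelled ECRS_KO and Control_WT, which differ in both genotype and disease, were also set against each other. None of the 5 genes reached 2-fold in this comparison as read from its brightest probe. The other detected probe of Ebf1 did, at 2.48-fold higher in the pool labelled ECRS_KO. Of 9085 genes measured, 6.91% lay at or past 2-fold upward and 5.66% downward. Ebf1 was 1.93-fold, Stmn2 1.91-fold, Gap43 1.61-fold and Lhx2 1.35-fold higher in the pool labelled ECRS_KO, and Gng8 was lower as given. Median scaling put 3 of them past 2-fold, namely Ebf1 (1.37 on the log2 scale), Stmn2 (1.24) and Gap43 (1.21). The background inferred by limma put 1 there, Stmn2, as it did 2.34% of genes measured.

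The stages before these genes were examined through lists of basal cell genes. In the pool labelled ECRS_KO, 2 of 6 measured genes of horizontal basal cells, the reserve stem cells, were at least 2-fold lower than in the pool labelled ECRS_WT and none higher, with a median of -0.69. Icam1, an adhesion molecule, was 2.33-fold lower and Krt17, a keratin, 2.27-fold lower. Trp63, the remaining gene of this list, was detected on no array. The part of other epithelium of the mucosa in these values was not tested. Of all genes 2.35% were at least 2-fold lower. All 7 measured genes of globose basal cells and cycling progenitors lay within 2-fold, with a median of -0.25. Hes6, a helix-loop-helix factor of neurogenesis, and Ccnd1, a cyclin, were 1.06-fold and 1.19-fold lower.

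In the pool labelled ECRS_WT no horizontal basal cell gene reached 2-fold against the pool labelled Control_WT (median 0.20). Krt14 and Krt17 were 1.36-fold and 1.24-fold lower, while 4 of the 6 measured genes were higher, among them Krt5 by 1.63-fold. Of the 6 globose basal and cycling genes measured there 1 was higher, Lgr5, a Wnt pathway receptor of stem cells, by 2.01-fold, and the list median was -0.12. Of all genes measured 3.76% were at least 2-fold higher.

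Of genes of neuronal commitment, 4 of 11 with a probe were measured, and the proneural relatives Neurog2, Neurod2 and Neurod4 were not detected on any array. Insm1, a zinc finger factor that drives progenitors to leave the cell cycle, had signals of 490 in the pool labelled ECRS_KO and 129 in the pool labelled ECRS_WT, 2.51-fold higher. Sox11, a factor of newborn neurons, was 1.81-fold higher there, and Cxcr4 was 1.54-fold lower. Elavl3, a neuronal RNA-binding protein, was 3.14-fold brighter in the pool labelled ECRS_KO, where it was not detected, than in the pool labelled ECRS_WT, where it was, so it was not counted among the higher genes. The list median, which takes in Elavl3, was 1.09, against 0.86 over the probes detected on all arrays. None of the 4 in the pool labelled ECRS_WT reached 2-fold against the pool labelled Control_WT (median -0.34), with Sox11 1.18-fold and Elavl3 1.47-fold lower.

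Further transcription factors of the lineage included close relatives of Ebf1. Ebf2 had a signal of 3455 in the pool labelled ECRS_KO, against 971 in the pool labelled ECRS_WT, a 2.68-fold difference. Ebf3 had signals of 10487 and 3341 on these arrays, a 2.52-fold difference. The other 5 measured factors lay within 2-fold, and the list median was 0.32. In the pool labelled ECRS_WT, 1 of the 7, Meis2, a homeodomain factor, was higher by at least 3.13-fold, being undetected in the pool labelled Control_WT. The median of this list was -0.15 in that comparison.

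Genes of the growth cone and neuronal cytoskeleton, the partners of Gap43 and Stmn2, were measured in 13 of 18 cases in the comparison of ECRS_KO with ECRS_WT. Of these 4 were higher by 2-fold or more, none was lower by as much, with a median of 0.37. Stmn4, another stathmin, had signals of 1322 in the pool labelled ECRS_KO and 201 in the pool labelled ECRS_WT, 4.58-fold higher. Stmn3 was 3.09-fold higher and the microtubule-associated protein gene Map1b 2.47-fold. Tubb3, the tubulin used as an immature neuron marker, was 1.19-fold lower. In the pool labelled ECRS_WT, 1 of 12 was at least 2-fold lower than in the pool labelled Control_WT and none higher, with a median of -0.14 that was positive, at most 0.05, under 1 of 9 alternative settings. Dpysl5, a collapsin response mediator of growth cones, had signals of 210 and 402 on these arrays, 2.65-fold lower.

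Axon guidance and adhesion genes of olfactory neurons were measured in 5 of 14 cases in the comparison of ECRS_KO with ECRS_WT, and 2 were at least 2-fold higher, with a median of 0.89. Ncam1, a neural adhesion molecule, was 2.57-fold higher, and Kirrel3, which takes part in axon sorting, was at least 2.52-fold higher, being undetected in the pool labelled ECRS_WT. On that array Ncam1 was 1.11-fold lower and Robo2, a guidance receptor, 1.29-fold higher than in the pool labelled Control_WT, and none of 3 measured genes reached 2-fold.

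**Figure D4:**
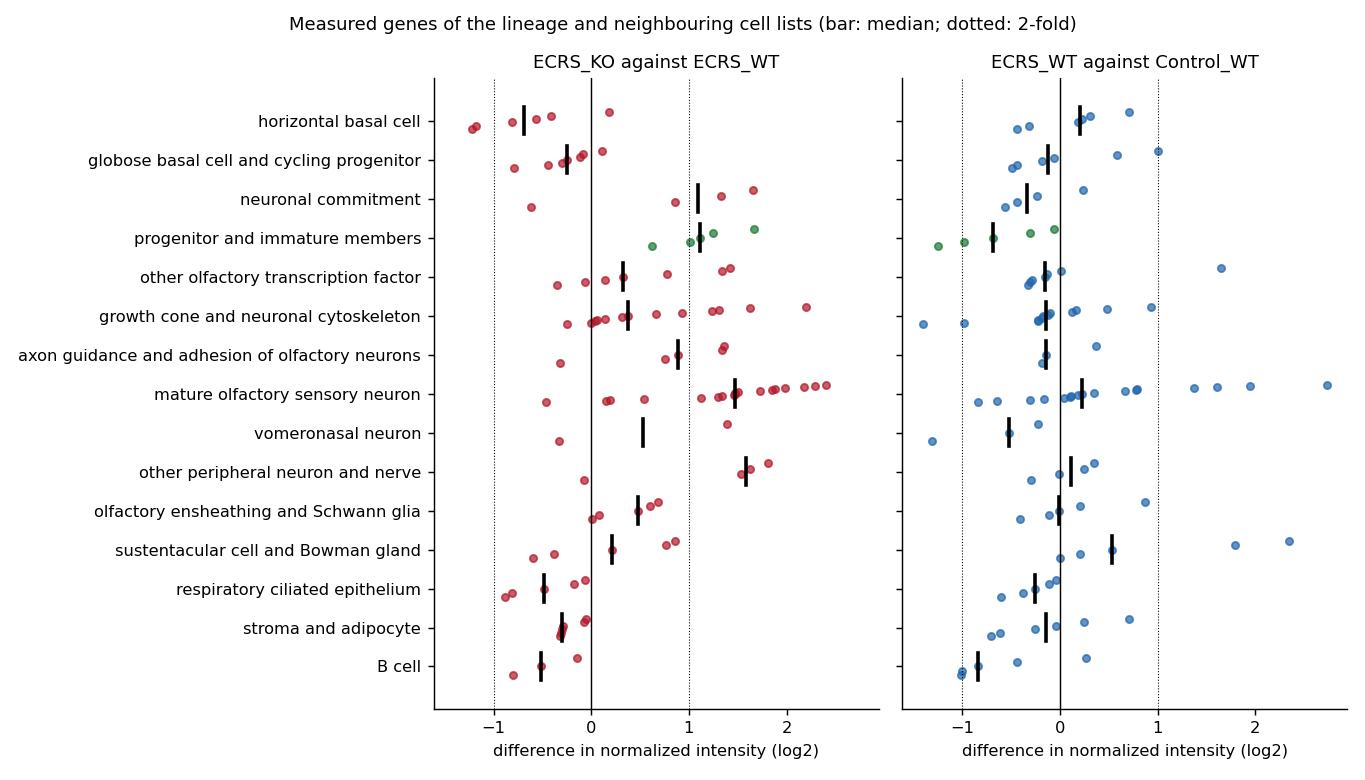
Difference in normalized intensity (log2, horizontal axis) of each measured gene of the 9 members and of 14 lists (rows), for ECRS_KO against ECRS_WT and ECRS_WT against Control_WT, with the median as a bar and dotted lines at 2-fold. Medians in the first panel run between -0.69 for horizontal basal cells and 1.58 for the list of other neurons, with 1.47 for mature olfactory neurons. The median of other neurons rests on 4 detected genes, Snap25, Chga, Uchl1 and Gnrh1, without the nerve markers of that list. It was 0.08 with no filter on detection.

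The later stage was examined through mature neuron genes. Of 18 mature olfactory sensory neuron genes, 14 were higher by 2-fold or more in the pool labelled ECRS_KO than in the pool labelled ECRS_WT and none lower, with a median of 1.47. Rtp2 and Rtp1, which carry odorant receptors to the surface, were 5.30-fold and 4.89-fold higher, and Gnal, the olfactory G protein alpha subunit, 4.54-fold. Omp was only 1.11-fold higher, and Cngb1, the one gene of the list below 0, was 1.38-fold lower. In the second comparison the mature list had a median of 0.22 and 4 of 17 genes at least 2-fold higher, where the 5 detected members, as read from their brightest probes, all lay below 0 (Ebf1 above it under 2 settings). Rtp2 was at least 6.66-fold, Rtp1 at least 3.84-fold and Gnb1, a G protein beta subunit, 3.04-fold higher in the pool labelled ECRS_WT than in the pool labelled Control_WT. Whether the immature and mature genes differ in this respect was not tested. When limma inferred the background itself, the medians for ECRS_KO against ECRS_WT were 0.64 for commitment genes and 0.09 for axon guidance genes. With no filter on detection they were 0.02 for commitment genes, 0.54 for axon guidance genes and 0.08 for the list of other neurons, which was 1.58 over its 4 detected genes. Over probes detected on all arrays the growth cone median was 0.93. The median of the mature list stayed between 1.36 and 1.55 under all 9 settings.

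Several of the 9 genes are used by other cells, and lists of those cells were read beside them. The summed normalized intensity of 18 mature olfactory genes was 106091 in the pool labelled ECRS_KO, 44547 in the pool labelled ECRS_WT and 43675 in the pool labelled Control_WT. That of the 5 detected members was 4329, 2102 and 3425 on the same arrays. For the list of other neurons, 4 of 10 genes with a probe were detected, at sums of 8190, 2602 and 2371. In that list Snap25, Chga and Uchl1, a synaptic, a secretory granule and a general neuronal protein, were 3.51-fold, 3.08-fold and 2.90-fold higher in the pool labelled ECRS_KO than in the pool labelled ECRS_WT. Between ECRS_WT and Control_WT, Snap25 was 1.19-fold higher and Uchl1 1.01-fold lower. Gnrh1, the remaining detected gene of the list, was 1.05-fold lower in the pool labelled ECRS_KO than in the pool labelled ECRS_WT. The markers of autonomic and sensory nerve Th, Dbh, Nefl, Nefm, Tac1 and Scn10a were detected on no array, so they do not enter these sums. Without them, the detected genes of this list do not tell other neurons from olfactory neurons. The part of other neurons in the values of the members was not tested.

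Vomeronasal neurons, which express Gng8, were represented by 3 detected genes of 6 with a probe, at sums of 3456, 2957 and 4126 in the pools labelled ECRS_KO, ECRS_WT and Control_WT. The receptor gene Vmn1r51 and the factor Tfap2e were detected on no array. Gnao1, a G protein alpha subunit, was 2.62-fold higher in the pool labelled ECRS_KO than in the pool labelled ECRS_WT. Gnai2, the only other gene of this list measured in that comparison, was 1.26-fold lower. Calr4, a calreticulin, was at least 2.47-fold lower in the pool labelled ECRS_WT, where it was not detected, than in the pool labelled Control_WT. The part of these cells in the Gng8 values was not tested.

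Ebf1 also acts in B cells and in stromal and fat cells. None of 3 measured B cell genes reached 2-fold between ECRS_KO and ECRS_WT, and all 3 were lower in the pool labelled ECRS_KO, by 1.10-fold for Vpreb3, a surrogate light chain gene, and 1.75-fold for Blnk, a signalling adaptor. The sums of 5 detected B cell genes were 2706, 3691 and 5294 in the pools labelled ECRS_KO, ECRS_WT and Control_WT, with Pax5 and Cd22 detected on none. Vpreb3 was 2.02-fold lower and Cd79b, a signalling chain of the B cell receptor, 2.01-fold lower in the pool labelled ECRS_WT than in the pool labelled Control_WT. The 6 measured stromal and fat cell genes were all within 2-fold and lower in the pool labelled ECRS_KO than in the pool labelled ECRS_WT, by 1.24-fold for Dcn, a matrix proteoglycan, and 1.04-fold for the adipocyte factor Cebpa. Their sums were 5398, 6558 and 5850 on the 3 arrays, in the same order. Dcn was 1.18-fold and Cebpa 1.64-fold higher in the pool labelled ECRS_WT than in the pool labelled Control_WT. They were the only 2 of the 6 genes above 0 in that comparison, where the list median was -0.15.

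Supporting cells of the olfactory epithelium and its nerve were examined last. Of 5 measured genes of ensheathing and Schwann glia none reached 2-fold in either comparison, with medians of 0.48 for ECRS_KO against ECRS_WT and -0.01 for ECRS_WT against Control_WT. The first of these medians was 0.06 with the background inferred by limma and 0.13 with no filter on detection. Sox10, a glial factor, was 1.61-fold higher in the first and differed by -0.0065 on the log2 scale in the second, and Pmp22, a myelin protein, 1.01-fold and 1.82-fold higher. None of 5 sustentacular and Bowman gland genes reached 2-fold for ECRS_KO against ECRS_WT (median 0.21), where Cyp2g1, an olfactory cytochrome, was 1.69-fold higher and Gsta4, a glutathione transferase, 1.30-fold lower. For ECRS_WT against Control_WT, 2 of them were higher, Ugt2a1, a glucuronosyltransferase, by 5.09-fold and Cyp2g1 by 3.45-fold (median 0.54). Genes of respiratory ciliated cells stayed within 2-fold, with medians of -0.49 (-0.18 with the background inferred by limma) and -0.26, and Rsph1 and Tekt1, both of the axoneme, were 1.13-fold and 1.04-fold lower in the first comparison and 1.20-fold and 1.03-fold lower in the second.

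The 5 detected genes were then compared by shape over the 3 arrays, as the distance between their log2 levels after centring each gene on its mean. Among themselves, Ebf1 and Stmn2 were closest, at 0.20, and Gng8 was farthest from the others, at 0.75 to 1.16. Among 7053 genes detected on all arrays, those nearest to Lhx2 were Asphd2, Kcnu1 and Kcnh3, at 0.03 to 0.05. Those nearest to Ebf1 were Slc4a8, Sdc3 and Nlgn3, at 0.03 to 0.04, and to Stmn2 Panx3, Csrnp2 and Syt4, at 0.02 to 0.05. Stmn3, Pip and Dyrk4 were nearest to Gap43, at 0.03 to 0.07. Mpo, Bhlha15 and Sephs1 were nearest to Gng8, at 0.08 to 0.13. Within a distance of 0.2 lay 78 genes for Ebf1, 57 for Stmn2, 48 for Lhx2, 18 for Gng8 and 8 for Gap43, so that with 3 points a close match is a description only.

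**Figure D5:**
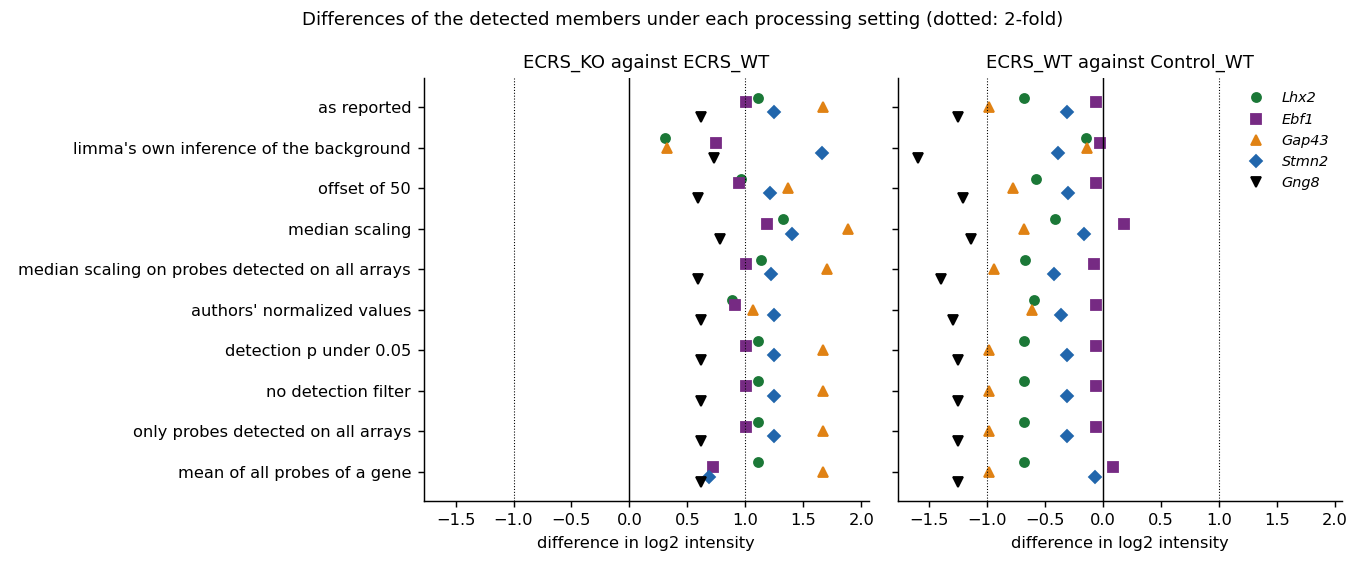
Difference in log2 intensity (horizontal axis) of the 5 detected genes as reported and under 9 alternative settings (rows), for ECRS_KO against ECRS_WT and ECRS_WT against Control_WT, with dotted lines at 2-fold. Every point in the first panel lies above 0, between 0.30 and 1.89, and in the second panel Gng8 lies past 2-fold under every setting shown, with -1.14 as the value nearest to 0.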

How the data were processed

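Total RNA of 5 mice per group was pooled, labelled as biotinylated cRNA and hybridised to 1 Illumina mouse bead array per group, per the labels' protocols. The deposited non-normalized table holds signal intensities with their detection p-values for 35226 probes, per the file headers. The deposited series table gives intensity normalized by the authors on a linear scale by a method not given in the sources used here. Its column medians were 76.7, 76.8 and 77.5 for ECRS_KO, ECRS_WT and Control_WT, and its Control_WT column equalled the signal plus a constant of 70.6. BeadStudio is named by the submitters' processing notes; the build is not given in the sources used here.

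From the signals, normexp background correction (offset 16), quantile normalization and log2 levels were computed with limma 3.58.1 in R 4.3.3. The mean and SD of negative controls came from the median signal in 100 bins of detection p-value (SDs of 16.9, 13.7 and 9.23 for ECRS_KO, ECRS_WT and Control_WT). The inference built into limma gave 360.6, 356 and 259.6, and these arrays had 222, 178 and 153 undetected probes brighter than a signal of 1000. Python 3.11.15, numpy 2.4.6 and pandas 2.3.3 were used for the rest.

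A probe was detected at p under 0.01. A gene was read from its brightest named probe, measured where detected on either array, and called at 2-fold or more where detected on the brighter array. Where it was undetected on the dimmer array, its own level or that array's lowest detected level was used, whichever was higher, giving "at least" folds. Of the probes 20571 had 1 gene symbol, 10 several and 14645 none; Entrez identifiers matched 20525 of the named probes to RefSeq symbols. With 1 array per group no p-value between groups was computed, and the number of arrays limits the precision. The members and the 14 lists, with 158 entries of which 139 had a probe, were chosen with earlier results of these data known. From each list and each of the first 2 comparisons the 3 largest differences at 2-fold or more are named, or otherwise the 2 brightest genes, besides all members, Scgb1a1 and the 3 genes nearest in shape to each called member. Genes given as undetected, Omp, Tubb3, Cxcr4, Gnai2, Gnrh1, Cngb1, Krt5 and the extra probes were added after their values were seen. So was the Sox11 value for ECRS_KO, and 9 alternatives were tried. The procedure was tested on simulated arrays of near-equal brightness, in which bright probes were detected. That test does not bear on the brightness gap or the bright undetected probes of the real arrays.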

Additional observations from a re-analysis of the deposited data

How the results depend on the processing

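The number of members at least 2-fold higher for ECRS_KO against ECRS_WT was 4 as reported. It was 1 when limma inferred the background itself, and 2 with an offset of 50, with the authors' normalized values and with the mean of all probes of a gene. It was 5 without a detection filter, which adds Dcx, and 4 under the other 4 settings. No setting gave a member at least 2-fold lower there. For ECRS_KO against Control_WT none was higher as reported, against 1 with the background inferred by limma, 1 with no detection filter and 3 with median scaling. For ECRS_WT against Control_WT, 1 member, Gng8, was at least 2-fold lower and none higher under all 9 alternatives. Lhx2 and Gap43 came as near to 0 there as -0.15 and -0.14 on the log2 scale. Of 45 values of the detected members for ECRS_KO against ECRS_WT, none changed sign and 9 dropped below 2-fold; Ebf1, at the threshold, did so under 4 settings (0.72 to 0.95 on the log2 scale). No called difference of a member reversed. The mean of probes lowered Stmn2 to 0.69 and Ebf1 to 0.72, since it takes in their dim probes. Of 126 list medians for ECRS_KO against ECRS_WT, 14 moved by more than the spread between probes of a gene; the cause was not tested. For ECRS_WT against Control_WT the medians of 5 lists lay so near 0 that their sign depended on the setting: globose basal, growth cone, axon guidance, glia and stroma. No paired analysis was possible because each group had 1 array. Signal near background limits Neurog1, Neurod1, Emx2 and the dim probe of Stmn2.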

Other observations

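Several neuronal genes had bright probes that were not counted as detected, as for Dcx. These were chosen after their values were seen. Dpysl2, a collapsin response mediator, had signals of 2337 in the pool labelled ECRS_KO, 1110 in the pool labelled ECRS_WT and 835 in the pool labelled Control_WT, with detection p-values of 0.0126 and 0.0389 on the first pair. Basp1, a growth cone protein related to Gap43, had signals of 3718, 2825 and 2177 in the same pools, in that order, and Robo1, a guidance receptor, 849, 614 and 299.9. Cntn4, an axonal contactin, had 370.0, 60.5 and 30.8. The p-values of Cntn4 were 0.262 and 0.263 in the pools labelled ECRS_KO and ECRS_WT. Each of these probes was brightest in the pool labelled ECRS_KO in the deposited signals, before any correction for the brightness of that array. After normalization, Basp1 and Robo1 hardly differed between ECRS_KO and ECRS_WT, at 0.02 and 0.005 on the log2 scale. Dpysl2 and Cntn4 differed by 0.65 and 1.83, at levels not counted as detected. None of these probes enters a count given above.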
